A study of Mus musculus with 9 samples.

Results

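The enzymes that write and erase acetyl and methyl groups on histones were examined as 56 genes of 18194 measured in the striatum of R6/2 and wild-type mice. Members were the genes whose symbol names a histone deacetylase (Hdac, Sirt), an acetyltransferase (Kat, Crebbp, Ep300), a lysine methyltransferase (Kmt, Ehmt, Setdb, Suv39h) or a lysine demethylase (Kdm), without 3 genes that the choice left out (Kdm5c, Kdm5d and Kdm6a). They comprise 18 deacetylases, 10 acetyltransferases, 13 methyltransferases and 15 demethylases, each read from 1 probe set, that with the highest mean over all arrays. Some carry a histone name but also act on other proteins, as Hdac6 does on tubulin in the cytoplasm.

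Acetyl groups on histone tails are put on by acetyltransferases, mark active promoters and enhancers, and are taken off by deacetylases, of which the Hdac enzymes use zinc and the sirtuins use NAD. Methyl groups on lysines mark active or silent chromatin depending on the lysine, and the methyltransferases and demethylases are selective for it. In Huntington disease these enzymes have long been studied because mutant huntingtin binds the acetyltransferase encoded by Crebbp, and inhibitors of deacetylases have been tried in mouse models.

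Gene expression was measured on 1 array per mouse in female mice on a C57Bl/6 and CBA background at 12 weeks of age. The 5 R6/2 mice (labelled R62_86, R62_95, R62_105, R62_107 and R62_109) carry a transgene with the first exon of human mutant huntingtin under the human promoter, besides their own mouse huntingtin genes, and the 4 wild-type mice (here WT_46, WT_47, WT_49 and WT_66) do not. All wild-type mice and R62_86 were 85 days old and the other R6/2 mice 83 days. The comparison asked which transcripts differed between the genotypes. Values are deposited log2 expression values, and differences are taken as R6/2 less wild-type, so that 1 stands for a doubling and a value below 0 for a lower level in R6/2 mice. A gene was called changed at a limma adjusted p under 0.05, adjusted over all 18194 genes. In this bulk tissue, fewer cells of a type and less RNA per cell cannot be told apart. Levels of different probe sets are not compared.

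The mice differed in more than the members. Of 13 measured markers of spiny projection neurons, the most numerous neurons in striatum, 12 fell and 1 (Tac1) did not pass, and their mean log2 value lay at 11.51 to 11.82 in wild-type and 9.64 to 10.57 in R6/2 mice, so the defining markers of striatal tissue were present in every sample. The mean of 10 cortex projection neuron markers, of which 4 rose and 1 fell, was 6.06 to 6.97 in wild-type and 6.76 to 7.57 in R6/2 mice. Of 10 astrocyte markers 5 fell and of 10 microglia markers 4 fell, as did 5 of 10 markers of GABA and cholinergic interneurons, and 0 of these rose. That of 10 choroid plexus and ependyma markers was highest in WT_66 (8.52), WT_47 (8.33) and R62_107 (7.07), against 5.13 to 5.98 in the other mice. The difference between 3' and 5' control probe sets of Actb, which grows when RNA is degraded, was 1.24 in R62_95 and 0.45 to 0.79 in the other 8. Medians of the arrays lay between 5.37 and 5.45.

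Promoter sequences are shown for 5 changed members because genes of opposite direction are then seen side by side. They are windows from RefSeq on GRCm38.p6, from 250 bases before to 50 after a transcription start, 5′ to 3′ on the strand of the gene, with GC boxes (GGGCGG, bound by Sp factors) and E-boxes (CACGTG) in capitals on either strand. Crebbp and Ep300 are the paralogous acetyltransferases that rose. Sirt1 rose and was the only changed member with an E-box among the 9 of 14 with a window. Kdm3a and Kdm7a are demethylases that fell. Of the 3 windows listed for Kdm3a, the one that lies farthest upstream is printed.
Crebbp: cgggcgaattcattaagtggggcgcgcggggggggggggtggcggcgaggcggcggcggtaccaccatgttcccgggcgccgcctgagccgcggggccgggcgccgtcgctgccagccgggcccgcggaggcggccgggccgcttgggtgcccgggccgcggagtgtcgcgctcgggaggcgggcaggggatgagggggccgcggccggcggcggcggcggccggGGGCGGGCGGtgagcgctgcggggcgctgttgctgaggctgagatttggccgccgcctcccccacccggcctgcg
Ep300: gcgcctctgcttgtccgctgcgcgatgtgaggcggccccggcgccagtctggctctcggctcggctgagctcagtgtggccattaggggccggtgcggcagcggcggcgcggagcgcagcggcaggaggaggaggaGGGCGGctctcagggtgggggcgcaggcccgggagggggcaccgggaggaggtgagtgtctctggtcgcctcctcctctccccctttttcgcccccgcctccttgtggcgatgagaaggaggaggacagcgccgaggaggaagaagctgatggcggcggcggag
Sirt1: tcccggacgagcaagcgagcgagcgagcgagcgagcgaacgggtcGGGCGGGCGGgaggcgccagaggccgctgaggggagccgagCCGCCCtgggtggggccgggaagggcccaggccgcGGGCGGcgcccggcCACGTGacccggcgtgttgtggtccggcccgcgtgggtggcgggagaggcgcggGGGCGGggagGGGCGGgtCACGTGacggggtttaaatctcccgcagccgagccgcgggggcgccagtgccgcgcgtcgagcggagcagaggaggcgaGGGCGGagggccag
Kdm3a: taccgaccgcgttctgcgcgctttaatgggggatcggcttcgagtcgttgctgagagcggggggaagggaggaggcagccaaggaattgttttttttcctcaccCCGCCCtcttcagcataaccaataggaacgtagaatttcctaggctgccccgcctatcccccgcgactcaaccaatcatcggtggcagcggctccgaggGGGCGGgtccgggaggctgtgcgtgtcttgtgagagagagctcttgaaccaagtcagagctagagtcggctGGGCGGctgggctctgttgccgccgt
Kdm7a: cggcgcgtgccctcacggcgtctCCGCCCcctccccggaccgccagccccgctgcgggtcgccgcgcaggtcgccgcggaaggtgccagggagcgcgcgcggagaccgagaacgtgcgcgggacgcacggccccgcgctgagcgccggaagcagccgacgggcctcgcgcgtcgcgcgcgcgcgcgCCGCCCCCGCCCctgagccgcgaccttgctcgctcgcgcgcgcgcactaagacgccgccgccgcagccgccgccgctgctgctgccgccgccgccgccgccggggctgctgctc
The windows lie at chr16:4213355-4213654 on the minus strand (Crebbp), chr15:81585964-81586263 on the plus strand (Ep300), chr10:63338986-63339285 on the minus strand (Sirt1), chr6:71632868-71633167 on the minus strand (Kdm3a) and chr6:39206724-39207023 on the minus strand (Kdm7a). Crebbp held 2 GC boxes, which overlap, Ep300 1, Sirt1 7 with 2 E-boxes, and Kdm3a and Kdm7a 3 each. The number of CG dinucleotides was 49, 30, 47, 24 and 65 in the same order. Across the 65 windows of the 45 members that have one, 67.7% held a GC box and 9.23% an E-box, against 35.7% and 7.15% of all 32851 windows, and the cyclic AMP response element TGACGTCA was in 1.54% against 1.79%. A GC box was in all 7 windows of members that rose and in 4 of 5 windows of members that fell, so these letters did not separate the directions.

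Of the 56 members, 9 were higher and 5 lower in R6/2 mice, and 42 did not pass. This is 25.0% changed, where 16.9% of all genes were called. Among the brighter 50% of genes, which hold 47 members, the shares were equal, at 29.8% of members and 29.8% of genes. After centring on housekeeping genes 8.93% of members and 12.0% of genes were called, and without 3 arrays rich in choroid plexus transcripts 3.57% and 4.84%. The share of changed genes is therefore not a result about the members. In the fit over all genes, higher members made up 16.1% against 9.28% of all genes, and lower members 8.93% against 7.57%. Among the brighter 50% of genes 9 of 47 members and 1624 of 9097 genes were higher, and 5 and 1086 lower. In that fit both shares are close to the background, so the higher share is not a result about the members either. The median log2 difference of the members was 0.14, and of all genes -0.02. Among the brighter 50% of genes the medians were 0.15 for members and 0.05 for genes. In 46 of 56 members (82.1%) the R6/2 mean lay above the wild-type mean, as it did in 46.1% of all genes. The groups did not overlap in 17 members (30.4%), against 17.3% of all genes. The shares of sign and of overlap were set only against all genes, not against the brighter ones.

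The classes differed in the direction of their calls. Deacetylases changed in both directions, with 3 higher and 1 lower of 18 at a median of 0.09. All 3 changed acetyltransferases of 10 were higher (median 0.15), as were all 3 changed methyltransferases of 13 (median 0.23). All 4 changed demethylases of 15 were lower, although the other 11 had differences of 0.00 to 0.44 and the median of the class was 0.08. Of 9 demethylase genes outside the choice of members, 3 rose and 0 fell. Among 9 fits with 1 mouse left out, the Kdm3b call ended in 7 and the Kdm7a call in 3. Kdm1a, Kdm5a and Kdm5b were each called higher without 1 mouse. A difference between the classes was not tested.

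**Figure D1:**
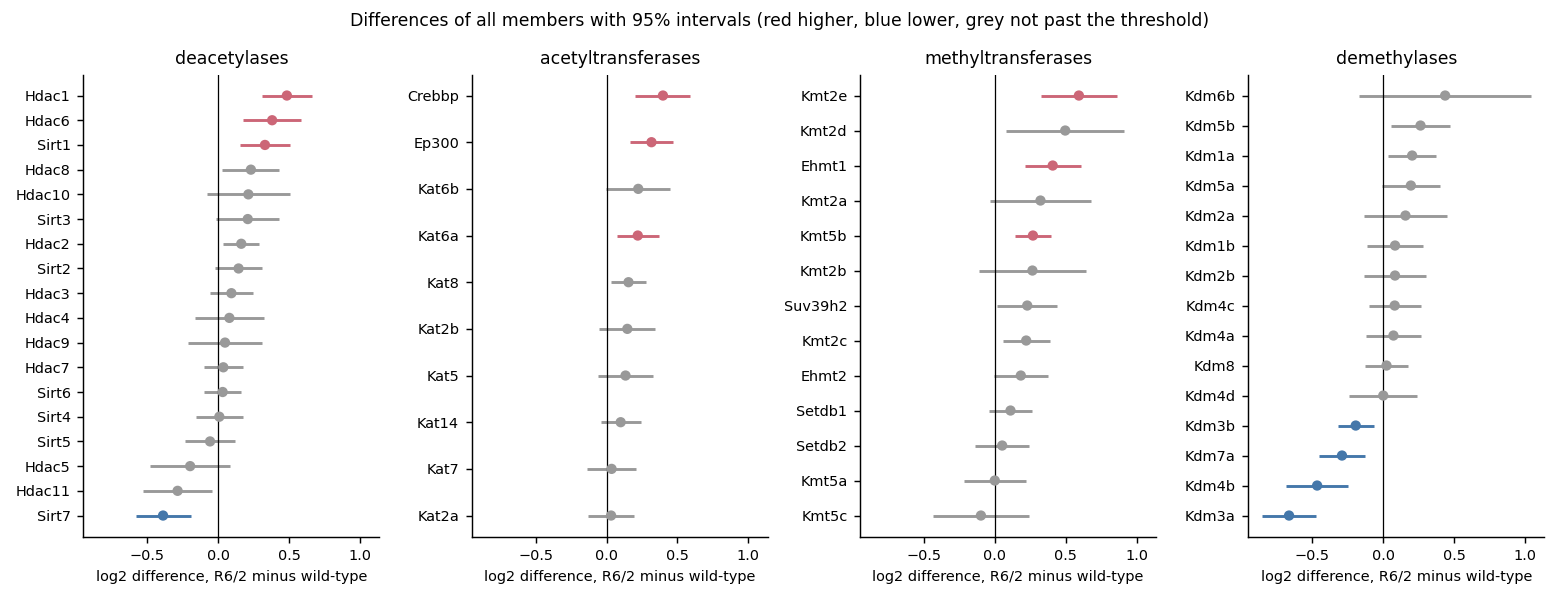
Log2 difference (R6/2 minus wild-type, x axis) of each of the 56 members by enzyme class, with the 95% interval of the limma fit, in red where higher, blue where lower and grey where not past the threshold. The 4 blue demethylases lie at -0.67 to -0.19 while all other demethylases lie at or above 0.00, and the rises end at 0.59 (Kmt2e).

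Among the deacetylases, Hdac1 had the clearest rise. Its product is a class I enzyme, the catalytic subunit of the Sin3, NuRD and CoREST corepressor complexes. Values are listed for WT_46, WT_47, WT_49 and WT_66 and then for R62_86, R62_95, R62_105, R62_107 and R62_109. Hdac1 was 7.32, 7.36, 7.67 and 7.33 in the wild-type mice, and 7.87, 7.95, 7.95, 7.93 and 7.82 in the R6/2 mice. The groups did not overlap, and WT_49 stood above the other wild-type mice. Hdac1 rose by 0.48 ± 0.08 on the log2 scale (SE, limma adjusted p 0.00286), to 140% of the wild-type level. The other class I genes gave values in the same direction that did not pass, with Hdac8 at 0.23 ± 0.09 (adjusted p 0.111), Hdac2 at 0.16 ± 0.06 (adjusted p 0.0820) and Hdac3 at 0.09 ± 0.07 (adjusted p 0.388). Hdac2, the partner of Hdac1 in those complexes, was 9.79, 9.70, 9.79 and 9.68 in wild-type mice, and 9.88, 9.96, 9.84, 9.88 and 9.96 in R6/2 mice. Its groups did not overlap either, but by a gap of less than 0.1. The probe set of Hdac2 carries the manufacturer's s suffix, for probes shared between transcripts. Without WT_49, Hdac8 passed at 0.32 ± 0.07 (adjusted p 0.0193).

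Hdac6, which acts on tubulin and binds ubiquitinated proteins, was 8.55, 8.58, 8.19 and 8.53 in wild-type mice, and 8.84, 9.02, 8.83, 8.73 and 8.79 in R6/2 mice. Every R6/2 mouse was above every wild-type mouse, and WT_49 was the lowest. Hdac6 rose by 0.38 ± 0.09 on the log2 scale (SE, limma adjusted p 0.0172), to 130% of the wild-type level. Without WT_49 and R62_95 it was 0.25 ± 0.05 (adjusted p 0.0175). None of the class IIa genes, signal-dependent repressors that bind MEF2 factors, passed. Hdac4 gave 0.08 ± 0.11 (adjusted p 0.672), with a 95% interval of -0.17 to 0.32, Hdac7 0.04 ± 0.06 (adjusted p 0.732), Hdac9 0.05 ± 0.12 (adjusted p 0.820) and Hdac5 -0.20 ± 0.13 (adjusted p 0.324). Hdac11, the single class IV gene, gave -0.29 ± 0.11 (adjusted p 0.106), and R62_95 (9.49) lay inside the wild-type range of 9.27 to 9.60 while the other R6/2 mice lay at 8.96 to 9.16. Without that mouse Hdac11 was lower at -0.37 ± 0.09 (adjusted p 0.0189). Hdac10 was 0.21 ± 0.13 (adjusted p 0.312).

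The sirtuins split. Sirt1, a nuclear enzyme that deacetylates histones and transcription factors, was 6.84, 6.61, 6.98 and 6.86 in wild-type mice, and 7.11, 7.10, 7.19, 7.10 and 7.27 in R6/2 mice. The groups did not overlap, and WT_47 was lowest. Sirt1 rose by 0.33 ± 0.08 on the log2 scale (SE, limma adjusted p 0.0177), to 126% of the wild-type level. Sirt7, a nuclear and nucleolar enzyme linked to ribosomal RNA transcription, was 8.73, 8.68, 8.70 and 8.75 in wild-type mice, and 8.40, 8.57, 8.10, 8.31 and 8.25 in R6/2 mice. The wild-type mice spanned less than 0.1, and all R6/2 mice lay below them. Sirt7 fell by 0.39 ± 0.09 on the log2 scale (SE, limma adjusted p 0.0128), to 76.3% of the wild-type level. The mitochondrial members gave 0.21 ± 0.10 (adjusted p 0.188) for Sirt3, 0.01 ± 0.08 (adjusted p 0.958) for Sirt4 and -0.06 ± 0.08 (adjusted p 0.664) for Sirt5. Sirt3 passed without WT_49 (0.31 ± 0.08, adjusted p 0.0250). Sirt2, abundant in oligodendrocytes, was 0.14 ± 0.07 (adjusted p 0.220) and Sirt6 0.03 ± 0.06 (adjusted p 0.763). Of 9 oligodendrocyte markers 3 fell and 0 rose, with a mean log2 value of 10.22 to 10.50 in wild-type and 9.92 to 10.54 in R6/2 mice, and their part in the Sirt2 value was not tested.

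**Figure D2:**
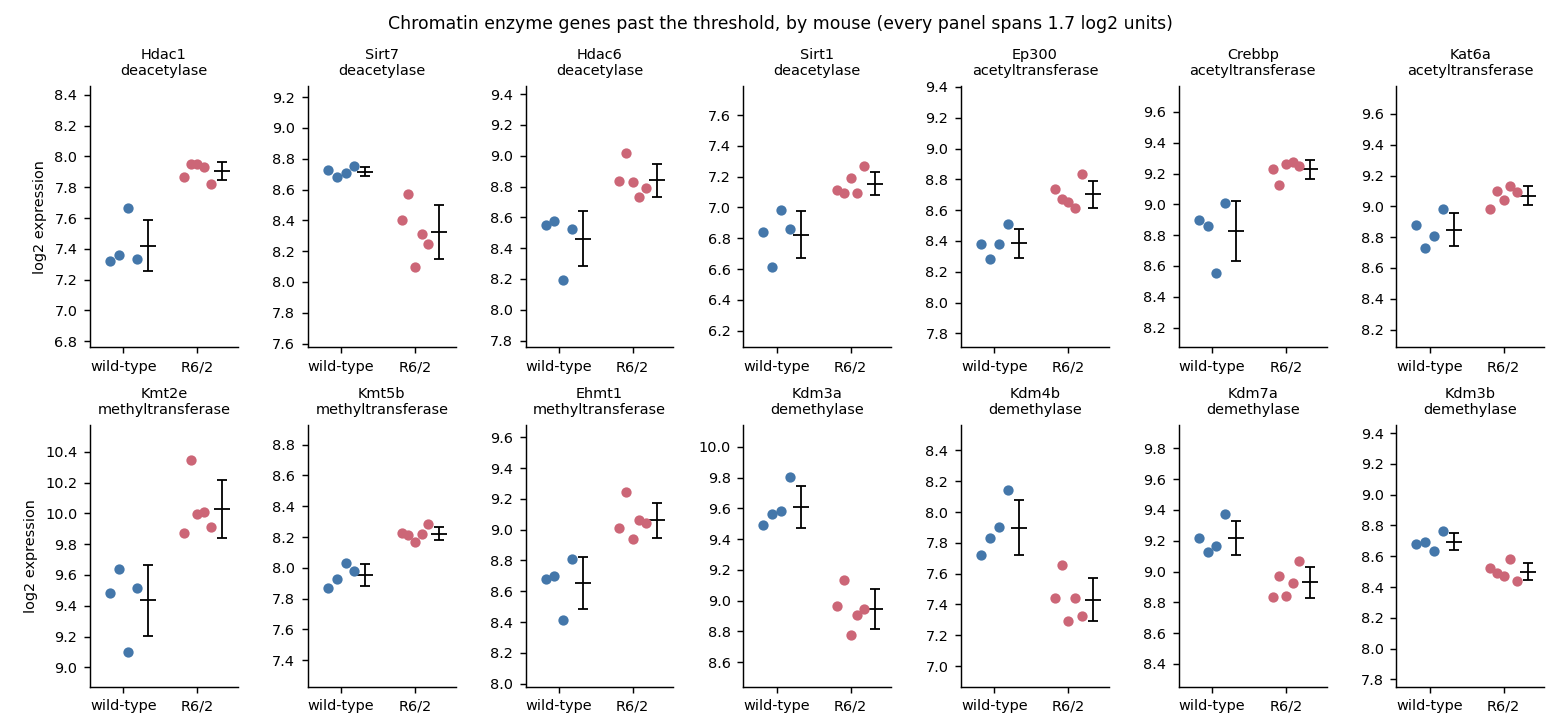
Log2 expression (y axis, every panel spanning the same range) of the 14 members past the threshold, with 1 point per mouse, left to right WT_46, WT_47, WT_49 and WT_66 (blue) and R62_86, R62_95, R62_105, R62_107 and R62_109 (red), and the mean ± SD beside each group. In 13 panels the groups do not overlap; in Kat6a the lowest R6/2 mouse and the highest wild-type mouse are both at 8.98.

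Of the acetyltransferases, the paralogous coactivators Crebbp (CBP) and Ep300 (p300) both rose. They acetylate histones at enhancers and are recruited by CREB and many other transcription factors. Ep300 was 8.38, 8.28, 8.38 and 8.51 in wild-type mice, and 8.74, 8.67, 8.65, 8.61 and 8.84 in R6/2 mice. Crebbp was 8.90, 8.86, 8.55 and 9.01 in wild-type mice, and 9.23, 9.12, 9.26, 9.28 and 9.25 in R6/2 mice. Neither gene showed overlap between the groups, and for Crebbp the R6/2 mice lay close together whereas WT_49 lay below the other wild-type mice. Ep300 rose by 0.32 ± 0.07 on the log2 scale (SE, limma adjusted p 0.0112), to 125% of the wild-type level. Crebbp rose by 0.40 ± 0.09 on the log2 scale (SE, limma adjusted p 0.0117), to 132% of the wild-type level. Of its 4 probe sets 3 were higher and 2 passed on their own, and the fourth was dim, at 3.34 in wild-type and 3.33 in R6/2 mice.

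Kat6a, a subunit of the MOZ acetyltransferase complex, was 8.88, 8.73, 8.81 and 8.98 in wild-type mice, and 8.98, 9.10, 9.04, 9.13 and 9.09 in R6/2 mice. The highest wild-type mouse (WT_66) and the lowest R6/2 mouse (R62_86) were level. Kat6a rose by 0.22 ± 0.07 on the log2 scale (SE, limma adjusted p 0.0447), to 117% of the wild-type level. Its other 2 probe sets were dim, with group means of 3.72 to 3.95, and gave 0.06 and -0.12, so the mean of the 3 (0.05 ± 0.05, adjusted p 0.482) is small by construction. The call ended without WT_46 (adjusted p 0.0713), WT_47 (0.122) or WT_49 (0.0774) and without R62_86 (0.0525), R62_95 (0.0716), R62_105 (0.0754), R62_107 (0.0923) or R62_109 (0.0906), and stood only without WT_66. The remaining 7 acetyltransferases gave 0.03 to 0.22. Kat8, the catalytic subunit of the MSL complex, was 0.15 ± 0.06 (adjusted p 0.0863) and did not overlap between groups. Kat6b, the paralogue of Kat6a, was 0.22 ± 0.10 (adjusted p 0.166). Its groups did not overlap either, but WT_49 (8.04) lay below the other wild-type mice (8.48 to 8.61), and without WT_49 and R62_95 the difference was 0.09 ± 0.06. Kat2b, of the SAGA family, was 0.15 ± 0.09 (adjusted p 0.298), Kat14 0.10 ± 0.06 (adjusted p 0.319) and Kat5, of the NuA4 complex, 0.13 ± 0.09 (adjusted p 0.336). The mean of the 3 Kat2b probe sets passed (0.19 ± 0.06, adjusted p 0.0486). The dimmest of them gave 0.33, at group means of 3.80 and 4.13. Kat7 was 9.16, 8.94, 8.98 and 9.15 in wild-type mice, and 9.01, 8.95, 9.11, 9.15 and 9.23 in R6/2 mice. These ranges overlapped almost entirely, and the difference was 0.04 with a 95% interval of -0.14 to 0.21, close to that of Kat2a (0.03, -0.13 to 0.20).

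Kmt2e rose and encodes a SET domain protein of the MLL family. Kmt2e was 9.48, 9.64, 9.10 and 9.52 in wild-type mice, and 9.87, 10.35, 9.998, 10.01 and 9.91 in R6/2 mice. The groups did not overlap, with R62_95 above the other R6/2 mice and WT_49 below the other wild-type mice. Kmt2e rose by 0.59 ± 0.12 on the log2 scale (SE, limma adjusted p 0.00870), to 151% of the wild-type level. All 6 of its probe sets were higher and 4 passed on their own, at 0.36 to 0.59. Without WT_49 and R62_95 together it was 0.40 ± 0.07 (adjusted p 0.00555), below Hdac1 at 0.55 ± 0.06.

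The other MLL genes, methyltransferases of lysine 4 of histone H3, did not pass, and the differences of 3 of them depended largely on 1 pair of mice. Kmt2d was 8.85, 8.74, 8.03 and 8.84 in wild-type mice, and 9.14, 9.58, 9.06, 9.01 and 8.78 in R6/2 mice. Kmt2a was 8.77, 8.67, 8.12 and 8.78 in wild-type mice, and 8.81, 9.38, 8.79, 8.78 and 8.78 in R6/2 mice. Kmt2b was 8.35, 8.27, 7.63 and 8.31 in wild-type mice, and 8.30, 8.89, 8.25, 8.30 and 8.30 in R6/2 mice. In each, WT_49 was the lowest and R62_95 the highest of all mice, and in Kmt2a and Kmt2b the other 7 lay close together. The differences were 0.50 ± 0.19 (adjusted p 0.100), 0.32 ± 0.16 (adjusted p 0.204) and 0.26 ± 0.17 (adjusted p 0.325). Without both mice they were 0.19 ± 0.09, 0.05 ± 0.05 and -0.03 ± 0.05. Kmt2b thereby changed sign. Leaving out the lowest wild-type and the highest R6/2 mouse must lower a difference, so a drop was fixed beforehand and only its size was not. Kmt2c moved less and was 0.22 ± 0.07 (adjusted p 0.0690) with no overlap between the groups, 0.17 ± 0.06 without both mice, and passed without WT_66 (0.28 ± 0.07, adjusted p 0.0387). Another of its 4 probe sets passed on its own (0.36 ± 0.08, adjusted p 0.0172). The mean of the 4 passed as well (0.29 ± 0.09, adjusted p 0.0473).

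Among methyltransferases for silent chromatin, Ehmt1 and Kmt5b rose. Ehmt1 encodes GLP, which forms a complex with G9a (Ehmt2) and dimethylates lysine 9 of histone H3. It was 8.68, 8.70, 8.42 and 8.81 in wild-type mice, and 9.01, 9.24, 8.94, 9.06 and 9.05 in R6/2 mice. Groups were apart, again with R62_95 highest and WT_49 lowest. Ehmt1 rose by 0.41 ± 0.09 on the log2 scale (SE, limma adjusted p 0.0116), to 133% of the wild-type level. Its partner Ehmt2 was 9.85, 9.80, 9.69 and 9.95 in wild-type mice, and 9.95, 10.26, 9.88, 9.95 and 9.999 in R6/2 mice. WT_66 lay at the level of 2 R6/2 mice and above R62_105, and the difference was 0.18 ± 0.09 (adjusted p 0.176). The other Ehmt2 probe set, at 8.32 in wild-type and 8.29 in R6/2 mice, gave -0.03 ± 0.14. The mean of both was 0.08 ± 0.08 (adjusted p 0.581). Kmt5b, which methylates lysine 20 of histone H4, was 7.87, 7.93, 8.03 and 7.98 in wild-type mice, and 8.22, 8.21, 8.17, 8.22 and 8.29 in R6/2 mice. The R6/2 mice lay close together and all lay above the wild-type mice. Kmt5b rose by 0.27 ± 0.06 on the log2 scale (SE, limma adjusted p 0.0107), to 120% of the wild-type level. All 5 of its probe sets were higher (the dimmest, at group means of 3.92 and 3.96, by 0.04) and 1 passed on its own. Their mean did not pass (0.17 ± 0.06, adjusted p 0.0814). Its paralogue Kmt5c gave -0.10 ± 0.15 (adjusted p 0.704) and Kmt5a, the monomethylating enzyme of the same lysine, -0.0008 ± 0.10 (adjusted p 0.996). Of the other enzymes of lysine 9, Suv39h2 was 0.23 ± 0.10 (adjusted p 0.133), Setdb1 0.11 ± 0.07 (adjusted p 0.313) and Setdb2 0.05 ± 0.09 (adjusted p 0.729). Without WT_49 and R62_95 the difference of Setdb1 was 0.04 ± 0.06 and that of Ehmt2 0.08 ± 0.06.

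The demethylases gave the lowest values of all members. The 4 that fell were Kdm3a, Kdm4b, Kdm7a and Kdm3b, iron-dependent enzymes with a Jumonji domain. Kdm3a was 9.49, 9.56, 9.58 and 9.81 in wild-type mice, and 8.97, 9.13, 8.78, 8.91 and 8.94 in R6/2 mice. The highest R6/2 mouse (R62_95) was more than 0.3 below the lowest wild-type mouse (WT_46). Kdm3a fell by 0.67 ± 0.09 on the log2 scale (SE, limma adjusted p 0.000770), to 63.1% of the wild-type level, the smallest adjusted p of the members. Kdm4b was 7.72, 7.83, 7.90 and 8.14 in wild-type mice, and 7.44, 7.66, 7.29, 7.44 and 7.33 in R6/2 mice. Its groups were separated by less than 0.1, between R62_95 and WT_46. Kdm4b fell by 0.47 ± 0.10 on the log2 scale (SE, limma adjusted p 0.00967), to 72.4% of the wild-type level.

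Kdm7a was 9.22, 9.13, 9.16 and 9.37 in wild-type mice, and 8.83, 8.97, 8.84, 8.93 and 9.07 in R6/2 mice. The nearest mice of the groups, WT_47 and R62_109, differed by less than 0.1. Kdm7a fell by 0.29 ± 0.07 on the log2 scale (SE, limma adjusted p 0.0231), to 81.7% of the wild-type level. Of its 5 probe sets 4 were lower and 2 passed on their own, at -0.38 and -0.29, whereas their mean did not pass (-0.17 ± 0.08, adjusted p 0.200). The call ended without WT_66 (adjusted p 0.0651), R62_86 (0.0568) or R62_105 (0.0567). Kdm3b, the paralogue of Kdm3a, fell by 0.19 ± 0.06 (adjusted p 0.0412) with no overlap between groups. Its second probe set was dim, at 4.97 in wild-type and 5.00 in R6/2 mice, and gave 0.03. The mean of both, made smaller by the dim one, did not pass (-0.08 ± 0.05, adjusted p 0.339). Without WT_66, R62_86 or R62_105, 2 demethylases and 3 members in all were called lower. The Kdm3b call ended without WT_46 (adjusted p 0.0712), WT_47 (0.0847) or WT_66 (0.107) and without R62_86 (0.0720), R62_95 (0.0593), R62_105 (0.0874) or R62_109 (0.0923).

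None of their close relatives among the members was called. Kdm4a gave 0.07 ± 0.09 (adjusted p 0.623) with a 95% interval of -0.12 to 0.27 and Kdm4c 0.08 ± 0.08 (adjusted p 0.545) with an interval of -0.10 to 0.26, both above the whole interval of Kdm4b (-0.68 to -0.25). Kdm4d lay at 3.45 to 4.08 in all mice, with a difference of 0.00 ± 0.11. Kdm1a, the flavin-dependent demethylase of the CoREST complex, was 9.31, 9.18, 9.004 and 9.02 in wild-type mice, and 9.38, 9.28, 9.36, 9.40 and 9.25 in R6/2 mice. WT_46 alone reached the R6/2 range, and the difference was 0.20 ± 0.08 (adjusted p 0.0955), or 0.27 ± 0.07 (adjusted p 0.0363) without that mouse. These values are of a probe set with the s suffix. The other Kdm1a probe set, at 8.04 in wild-type and 8.14 in R6/2 mice, gave 0.09 ± 0.09. The mean of both was 0.15 ± 0.08 (adjusted p 0.222). Kdm1b gave 0.08 ± 0.09 (adjusted p 0.566) and Kdm8 0.02 ± 0.07 (adjusted p 0.850).

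Demethylases of lysine 4 of histone H3, Kdm5a and Kdm5b, were 0.20 ± 0.09 (adjusted p 0.178) and 0.26 ± 0.09 (adjusted p 0.0815). Kdm5b was 8.55 to 8.59 in 4 R6/2 mice and 8.20 in R62_109, which lay inside the wild-type range. Without R62_109 Kdm5b passed (0.34 ± 0.07, adjusted p 0.0192), and without R62_95 Kdm5a passed (0.27 ± 0.07, adjusted p 0.0295). These values are of 1 probe set per gene. Another Kdm5b probe set, at 6.64 in both genotypes, gave -0.01 ± 0.08. The means over all probe sets, some of them dim, were 0.02 ± 0.05 for Kdm5a and 0.02 ± 0.07 for Kdm5b. Kdm6b, which demethylates lysine residues marked by Polycomb and is induced by activity and inflammation, was 7.15, 7.21, 6.22 and 7.46 in wild-type mice, and 7.38, 8.23, 7.33, 7.32 and 6.97 in R6/2 mice. Its difference of 0.44 ± 0.27 (adjusted p 0.312) rested on WT_49 and R62_95, and was -0.02 ± 0.12 without them. As these were its lowest wild-type and highest R6/2 mouse, a drop was fixed beforehand, though not its size. Kdm2a and Kdm2b, at 0.16 ± 0.13 (adjusted p 0.458) and 0.08 ± 0.10 (adjusted p 0.613), changed sign in the same way (-0.02 ± 0.07 and -0.03 ± 0.09).

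WT_49 and R62_95 stood apart over the members as a whole. The same was not measured over all genes, so it is not shown to be particular to the members. The mean absolute distance of a member from the mean of its group was 0.169 in WT_49 and 0.164 in R62_95, against 0.0589 to 0.122 in the other 7 mice. R62_95 was the highest R6/2 mouse in 25 of 56 members and WT_49 the lowest wild-type mouse in 24. These were also the mice with the highest 3' minus 5' difference of their group in the Actb controls (1.24 and 0.79), and in the Gapdh controls (0.40 and -0.06), and WT_49 had the highest and R62_95 the lowest marker means of all mice for microglia (8.11 and 7.11) and astrocytes (10.21 and 9.64). The part of RNA quality and of these cells was not tested. Where WT_49 was the lowest wild-type and R62_95 the highest R6/2 mouse, leaving out both could only lower the difference. Among members not called, Hdac7 (-0.01 ± 0.05), Kat2a (-0.0063) and Kmt5a (0.02 ± 0.06) also changed sign without both mice. Without both, 18 members passed, 12 higher and 6 lower, of which 13 were among the 14, and the median of the members was 0.08. Kat6a did not pass there (0.20 ± 0.07, adjusted p 0.101). The 5 that passed in addition were Hdac8, Hdac11, Sirt3, Kat5 and Kdm5a.

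**Figure D3:**
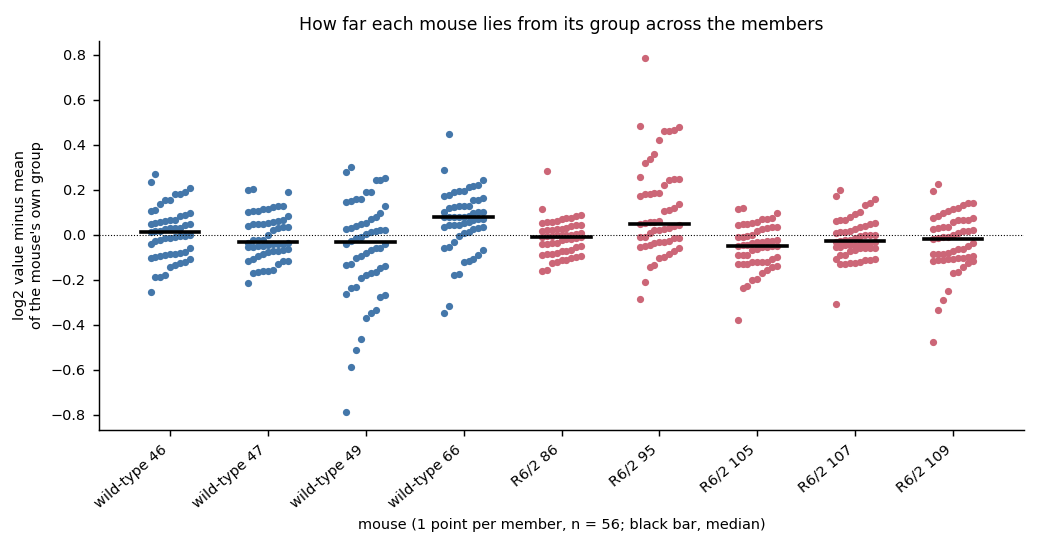
Distance of each mouse's log2 value from the mean of its own group (y axis), with 1 point per member (n = 56) and a black bar at the median, for 4 wild-type (blue) and 5 R6/2 (red) mice. WT_49 and R62_95 spread widest, around medians of -0.03 and 0.05.

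Calls of members depended on how neighbouring tissue, age and scaling were handled, whereas the direction of the 14 changed members was the same in each of these fits. In 13 of them the groups did not overlap, so neither the age fit nor leaving out mice could turn the direction. With the mean of the cortex markers as a covariate 0 of the 14 passed. The 9 higher members lay there at 0.31 to 0.61, with a median of 0.34, and their adjusted p was 0.0519 (Hdac1) to 0.300. The 5 lower members were at -0.49 (Kdm3a) to -0.13, and Kdm4b changed from -0.47 to -0.22 ± 0.11. With age in days as a covariate 0 passed, at 0.13 to 0.45 and -0.65 to -0.17. Only R62_86 of the R6/2 mice had the age of the wild-type mice. Each difference in the age fit is therefore the value of R62_86 alone less the wild-type mean, and age and genotype can hardly be told apart. When the 3 mice with most choroid plexus signal were left out (WT_47, WT_66 and R62_107), Kdm3a (-0.58 ± 0.11, adjusted p 0.0331) and Kmt2e (0.74 ± 0.16, adjusted p 0.0482) passed. The values did not shrink as the calls did, with a median of 0.40 over the 9 higher and -0.38 over the 5 lower members, in a fit of 2 wild-type and 4 R6/2 mice.

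Scaling acted on the rises. Centring each array on 7 measured housekeeping genes, of which Pgk1 and Hprt themselves rose, brought the median over all genes to -0.15 (from -0.02), and higher calls made up 18.2% of all calls (from 55.1%). The median of the members moved from 0.14 to 0.01. Of the members, 0 were then higher and 5 lower, namely Kdm3a (-0.80 ± 0.13), Kdm4b (-0.60 ± 0.14), Sirt7 (-0.52 ± 0.13), Kdm7a (-0.42 ± 0.11) and Kdm3b (-0.33 ± 0.10), and the 9 others lay at 0.09 to 0.46. The rises of Hdac1, Crebbp, Ep300, Kmt2e and the others therefore hold relative to the rest of each array.

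**Figure D4:**
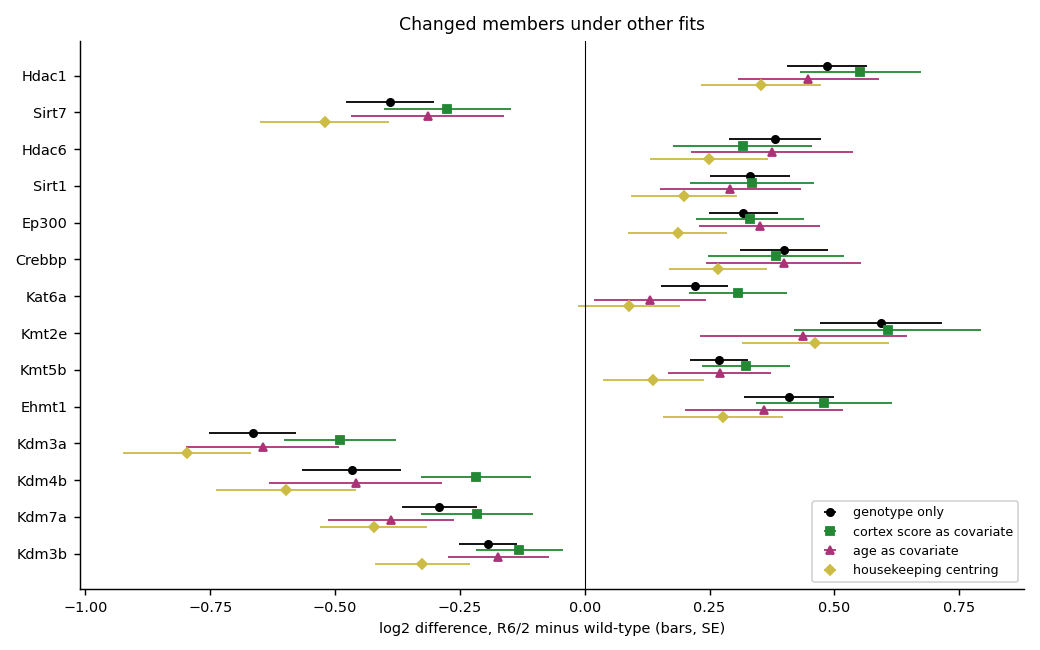
Log2 difference ± SE (x axis) of the 14 changed members (y axis) in the fit of genotype alone (black), with the cortex score (green) or age (purple) as a covariate, and after centring on housekeeping genes (yellow). All points keep their side of 0, the rises shrink after centring to 0.09 to 0.46, and Kdm4b moves most with the cortex score, from -0.47 to -0.22.

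Proteins that work with these enzymes were followed in 7 lists, of which 141 genes were measured. Of these 35 were higher and 9 lower (31.2% changed, against 16.9% of all genes), with a median of 0.13 against -0.02. In the separate fit of the brighter 50% of genes, 29.8% of genes were called, at a median of 0.05. There 46 of the listed genes passed, but how many of the 141 that fit held was not counted. Its share is therefore not a matched background for the 31.2%. In the deacetylase corepressor complexes 6 of 26 rose and 3 fell. The Sin3 complex held rises of Sap30, a subunit that binds Hdac1, from 6.75 in wild-type to 7.75 in R6/2 mice (adjusted p 0.00138), and of the scaffold Sin3b by 0.65 ± 0.09 (adjusted p 0.00124). Brms1, another subunit of Sin3 complexes, fell by 0.69 ± 0.13 (adjusted p 0.00466). The acetyltransferase complexes had 7 higher and 1 lower of 30. Epc1 (0.34 ± 0.06, adjusted p 0.00415) and Dmap1 (0.29 ± 0.06, adjusted p 0.0106), subunits of the complex of Kat5, and Tada2a, an adaptor of Kat2a and Kat2b, rose (0.40 ± 0.08, adjusted p 0.00836), and Msl1, the scaffold around Kat8, fell by 0.23 ± 0.07 (adjusted p 0.0465). Of 10 other acetyltransferase genes, Gtf3c4 (0.34 ± 0.06, adjusted p 0.00434) and the nuclear receptor coactivator Ncoa1 (0.22 ± 0.07, adjusted p 0.0422) rose and Naa40, which acetylates histone amino termini, fell by 0.37 ± 0.09 (adjusted p 0.0158).

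In the methyltransferase complexes 4 of 17 rose and 0 fell. Rbbp5, a core subunit shared by the MLL complexes, rose by 0.33 ± 0.06 (adjusted p 0.00318), and Paxip1, found with Kmt2c and Kmt2d, by 0.38 ± 0.07 (adjusted p 0.00658). Wiz, a zinc finger partner of Ehmt1 and Ehmt2, rose by 0.50 ± 0.09 (adjusted p 0.00540). Psip1, which tethers MLL proteins to chromatin, had the smallest p on the lower side and did not pass (-0.22 ± 0.07, adjusted p 0.0606). Of 33 other methyltransferase genes 6 rose and 2 fell, with Smyd2 at 1.09 ± 0.15 (adjusted p 0.000888) and the arginine methyltransferases Prmt2 at 0.63 ± 0.09 (adjusted p 0.00125) and Prmt8, a brain-enriched form, at -0.68 ± 0.08 (adjusted p 0.000488). Among 9 other demethylase genes 3 rose and 0 fell. Phf2 (0.52 ± 0.10, adjusted p 0.00527) and Phf8 (0.43 ± 0.09, adjusted p 0.0109), which belong to the family of Kdm7a, rose where Kdm7a fell, as did Jmjd6 (0.35 ± 0.09, adjusted p 0.0251), and Hr was -0.41 ± 0.13 (adjusted p 0.0547). Bromodomain proteins, which read acetylated lysine, had 7 higher and 2 lower of 16. Atad2b rose by 1.11 ± 0.11 (adjusted p 0.000214) and Baz2b by 0.58 ± 0.09 (adjusted p 0.00198), and Baz1a, of remodelling complexes, fell by 0.79 ± 0.15 (adjusted p 0.00515). With the cortex score as a covariate 3 of the 141 passed, with age 0, after housekeeping centring 19, without the 3 choroid-rich arrays 10 and without WT_47 29.

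**Figure D5:**
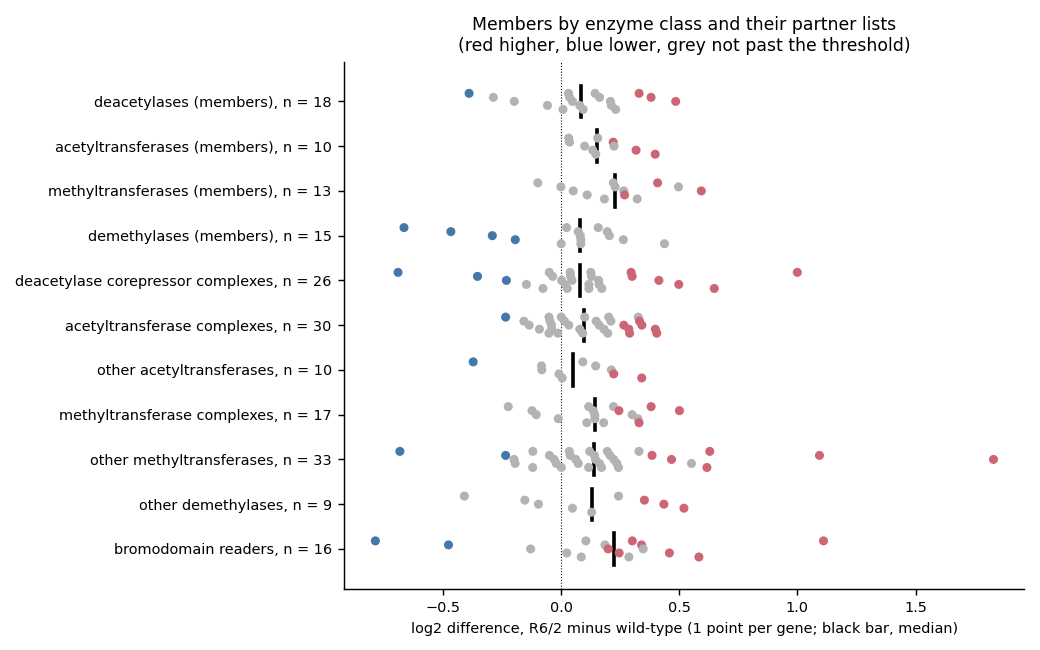
Log2 difference (x axis) of each gene in the 4 enzyme classes of the members and in 7 lists of related genes (y axis), in red where higher, blue where lower and grey where not past the threshold, with a black bar at the median. Medians lie between 0.05 and 0.23, the demethylase members alone among the classes hold blue points without red ones, and Prdm8 (1.83) among other methyltransferases is the point farthest right.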

How the data were processed

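Total RNA of the striatum of 9 mice, 4 wild-type and 5 R6/2, was labelled with biotin by in vitro transcription and hybridised to 1 array each, per the labels' protocols. The deposited log2 values of 45101 probe sets come from RMA in affy, per the submitters' processing notes, so differences are relative to the rest of each array. The version of each tool and the set of arrays normalized jointly is not given in the sources used here. Of the probe sets, 34958 named 1 gene in the platform annotation, 932 several and 9211 none, and symbols were updated through gene identifiers, of which 34754 matched RefSeq (GRCm38.p6).

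The brightest probe set of each of 18194 genes was fitted with limma 3.58.1 (lmFit, eBayes) under R 4.3.3, on genotype alone, with two-sided tests and Benjamini-Hochberg adjustment over all genes. No filter on dim genes was set. The fit was tested on simulated data. The number of arrays limits the precision, and correlations between arrays were 0.979 to 0.996. Nothing says whether arrays were processed in batches. The members and lists were chosen with earlier results of these data known. All members could be named. Values per mouse are given for the 3 smallest p per class and direction, and for the member of highest mean per class among those that did not pass, and up to 4 genes are named per related list. Kmt2a, Kmt2b, Kmt2d and Kdm6b were shown by mouse after their values were seen. As alternatives the fit used every probe set, the mean of probe sets per gene, only the brighter 50% of genes, quantile normalization, housekeeping centring, eBayes with trend and robust settings, no moderation, array weights, age or the cortex score as a covariate, annotation symbols as given, and mice left out. The fit without WT_49 and R62_95 was added after seeing the data. Figures were drawn with matplotlib 3.10.9.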

Additional observations from a re-analysis of the deposited data

Results flagged for a closer look

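In 15 of 112 groups of member values, 1 mouse lay far from the others of its genotype by Dixon's criterion, which chance meets in about 1 of 20 independent groups. These groups were read on the same arrays and are not independent, so the count cannot be judged by that rate. The share over all genes was not computed. R62_95 accounted for 6, all on the high side of the other R6/2 mice, in Hdac5 (9.27 against 8.69 to 8.81), Kdm2a (8.10 against 7.47 to 7.52), Kmt2a (9.38 against 8.78 to 8.81), Kmt2b (8.89 against 8.25 to 8.30), Kmt2e (10.35 against 9.87 to 10.01) and Kmt5a (7.76 against 7.41 to 7.50). WT_49 accounted for another 6, in Hdac1 (7.67 against 7.32 to 7.36), Hdac6 (8.19 against 8.53 to 8.58), Hdac7 (6.84 against 7.03 to 7.04), Kmt2b (7.63 against 8.27 to 8.35), Kmt2d (8.03 against 8.74 to 8.85) and Setdb1 (7.69 against 7.92 to 7.94), on the high side only in Hdac1. WT_46 was the lowest in Kat2b (8.24 against 8.57 to 8.60) and Sirt2 (9.62 against 9.78 to 9.80), and R62_109 in Kdm5b (8.20 against 8.55 to 8.59).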

How the results depend on the processing

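No paired analysis was possible because animal numbers differ between the genotypes. All 14 changed members kept their direction in every alternative, but much of this was fixed beforehand. In 13 the groups did not overlap, so leaving out or weighting mice could not turn the direction. Trend and robust settings, no moderation, the brighter 50% of genes and unchanged symbols leave each difference as it was. Counts of changed members and of classes stayed within 1.5 times in these 4 fits. They did so too under quantile normalization, array weights and single probe sets. Kat6a and Kdm3b were not called with every probe set or with trend and robust settings. With the mean of probe sets 3 members were lower and 2 demethylases changed, and Kmt2c and Kat2b were called higher. After housekeeping centring 5 members, 1 deacetylase, 0 acetyltransferases, 0 methyltransferases and 19 partner genes changed, and 0 members were higher. With age as a covariate 0 members, 0 of each class and 0 partner genes passed, higher or lower, and 30 of all genes. With the cortex score as a covariate the counts were 0 members, 0 of each class, 3 partner genes and 330 of all genes. Without the 3 choroid-rich arrays 2 members (1 higher, 1 lower), 0 deacetylases, 0 acetyltransferases, 1 methyltransferase, 1 demethylase, 10 partner genes and 880 of all genes passed. Without moderation 2006 of all genes passed, and without WT_49 and R62_95 7 deacetylases did. With 1 mouse left out, 11 to 15 members passed, 8 to 10 higher and 3 to 5 lower, with 4 to 6 deacetylases, 2 to 3 acetyltransferases, 3 to 4 methyltransferases, 2 to 4 demethylases, 29 to 41 partner genes and 2183 to 2984 of all genes. Fewer mice were fitted in these cases, and the cause of the other changes was not tested. The number of arrays limits which smaller differences could be resolved.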
